A study of Mus musculus with 16 samples.

Results

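The 6 iTreg RNA libraries of this series compare mouse CD4 T cells that lost the gene Ezh2 with cells that kept it, after culture under conditions that induce regulatory T cells. They are 6 of 16 libraries in all, chosen by their titles: 3 titled iTreg.Ezh2KO, here called KO.150, KO.153 and KO.165, and 3 titled iTreg.Ezh2fl/fl, here called fl/fl.154, fl/fl.155 and fl/fl.177. The Ezh2-deleted cells came from the strain Ezh2 fl/fl.CD4Cre (genotype Ezh2-/-), in which a Cre recombinase driven by Cd4 removes the floxed gene in T cells from the stage at which Cd4 is first expressed. The control cells came from Ezh2 fl/fl mice without Cre, labelled wild type, so both groups carry the floxed alleles and only the Ezh2-deleted group carries Cre. Flow-sorted naive CD4 T cells were stimulated with plate-bound anti-CD3 (5 ug/ml) and soluble anti-CD28 (1 ug/ml), with IL-2 (200 U/ml) and TGF-beta1 (5 ng/ml) added on days 1 and 3. The titles give day 5, and the protocol gives harvest on day 4. The 3 libraries of a group are biological replicates per the series design, the age and sex of the mice are not given in the labels, and no label ties a number to a litter or a sequencing day. The other 6 RNA libraries are Th0 cells of the same 2 genotypes, stimulated with IL-2 (50 U) and no TGF-beta1, with day 4 in their titles. A further 4 libraries are H3K27me3 ChIP of Th0 cells.

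Ezh2 is the methyltransferase of Polycomb repressive complex 2 (PRC2), which adds methyl groups to lysine 27 of histone H3. The trimethylated form, H3K27me3, marks genes that are kept silent, and Polycomb repressive complex 1 (PRC1) recognises it. TGF-beta, acting through receptors and SMAD proteins together with IL-2 and the antigen receptor, induces Foxp3, the transcription factor that defines regulatory T cells. T helper 1 and cytotoxic genes, among them Ifng, Tbx21, Eomes and the granzymes, are held low in that state.

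The libraries held 21910114 to 26259941 reads counted in genes, and levels are given as CPM, the reads of a gene scaled to the total of its library. Values are listed in the order KO.150, KO.153 and KO.165 for Ezh2-deleted cells and fl/fl.154, fl/fl.155 and fl/fl.177 for control cells. Ezh2 itself (chromosome 6, 47530274 to 47595341, mm10) had 123, 118 and 48.7 CPM in the Ezh2-deleted and 250.7, 241 and 166 CPM in the control libraries. The groups did not overlap (log2 change -1.18, SE 0.30, edgeR adjusted p = 0.0235), and the call was lost without control fl/fl.154 or fl/fl.155 (adjusted p = 0.0781 and 0.0802). Cre can leave reads from exons that are not floxed, and which exons are floxed is not given in the sources used here. Of 18 T cell identity genes all were detected, with summed levels of 6082 to 8158 CPM in Ezh2-deleted and 6375 to 7050.0 CPM in control cells. Xist had 25036 reads in library KO.165 and 2 to 21 in the other 5, and the Y-linked Ddx3y 4 reads against 2114 to 4635, so KO.165 also differed from the other libraries in these sex-linked genes. The Y-linked Uty, Kdm5d and Eif2s3y had 0.0456, 0.137 and 0.456 CPM in KO.165 and were far higher in every other library. The Ezh2-deleted group was thus mixed in these genes and the control group was not. The part of this difference in the genotype changes was not tested.

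Libraries KO.165 and fl/fl.177 stood apart from the other libraries of their groups, and in the same direction. The first principal component of the 6 libraries held 52.8% of the variance and placed KO.165 at 89.2 and fl/fl.177 at 39.8, against -43.7 to -20.8 for the other 4. The second, with 40.7%, separated the genotypes, at 38.0 to 45.1 for Ezh2-deleted and -45.6 to -38.8 for control libraries. Libraries KO.150 and KO.153 were near copies of each other by comparison: the chi-square per degree of freedom of their counts was 5.26, and 9.71 for fl/fl.154 and fl/fl.155, against 442 and 471 for KO.165 with its mates and 173 and 141 for fl/fl.177. These pairs differed by more than sampling noise, so each library was counted as 1 sample. The numbers KO.165 and fl/fl.177 also stand in Th0 titles. Over the genes with at least 5 CPM the root mean square deviation of these Th0 libraries from their mates was 0.26 log2 units for Th0 KO.165 and 0.12 for Th0 fl/fl.177.

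**Figure D1:**
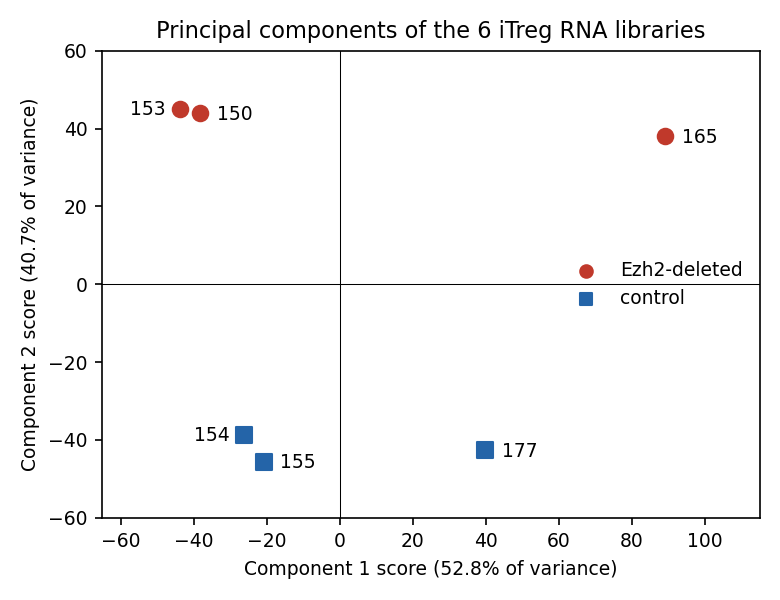
Scores of the 6 iTreg RNA libraries on the first (x axis) and second (y axis) principal component, in log2 CPM units, with Ezh2-deleted libraries as circles, control libraries as squares and each labelled by the number in its name. Libraries KO.165 and fl/fl.177 lie to the right at 89.2 and 39.8, and the genotypes part along the vertical axis.

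The deviation of each library was measured as its log2(CPM + 0.5) minus the mean of the other 2 libraries of its group, over the 9921 genes whose mean of the 6 libraries reached 5 CPM. The deviations of KO.165 and fl/fl.177 correlated across genes (Pearson's r 0.82, Spearman's rho 0.84; a description across genes, which are not independent, of 2 libraries that share no mates), and 84.5% of genes deviated in the same direction. The root mean square was 1.20 in KO.165 and 0.65 in fl/fl.177, against 0.14 for the difference of KO.150 and KO.153 and 0.17 for that of fl/fl.154 and fl/fl.155. In KO.165, 3388 genes deviated at least 2-fold and in fl/fl.177, 1031, of which 368 were up in both, 527 down in both and 8 opposed.

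Genes of glucose and lipid metabolism were among those low in both libraries. Tpi1, the glycolytic triosephosphate isomerase, had 543, 665 and 27.5 CPM in Ezh2-deleted and 456, 286 and 49.6 CPM in control cells. Hk2, the hexokinase that starts glycolysis, had 66.4, 84.3 and 1.64 and 58.2, 37.0 and 2.86 CPM. For both genes KO.165 and fl/fl.177 were the lowest libraries of their groups, by over 5-fold, and the genotypes overlapped. Lif, a cytokine of the IL-6 family, had 183, 215 and 3.15 and 142, 104 and 17.04 CPM, and Scd1, the stearoyl-CoA desaturase, 284, 283 and 19.0 and 244, 171 and 29.2 CPM. In the lists the median deviation was -2.18 in KO.165 and -1.60 in fl/fl.177 for 17 glycolysis genes, -2.71 and -1.56 for 18 sterol synthesis genes, -1.98 and -0.58 for 28 cell cycle genes and -2.11 and -0.84 for 17 genes of amino acid stress and serine synthesis.

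Genes of naive and memory T cells were among those high in both. Fam101b, which encodes a filamin-binding protein, had 7.27, 5.27 and 255 and 3.27, 2.86 and 68.0 CPM. Matk, a kinase related to Csk, had 3.80, 3.30 and 238 and 4.65, 4.85 and 49.6 CPM, and Cd7, a T cell surface protein, 5.204, 5.19 and 59.4 and 5.598, 6.77 and 82.7 CPM. Among naive and memory genes Tcf7, which encodes TCF-1, had 98.3, 71.3 and 2514 and 157, 180.0 and 419 CPM, and Ccr7, the lymph node homing receptor, 171, 166 and 733 and 262, 287 and 583 CPM. The 14 genes of that list had a median deviation of 2.09 in KO.165 and 0.95 in fl/fl.177. In each of these 5 genes KO.165 and fl/fl.177 were the highest libraries of their groups and the genotypes overlapped. What set these 2 libraries apart was not tested.

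**Figure D2:**
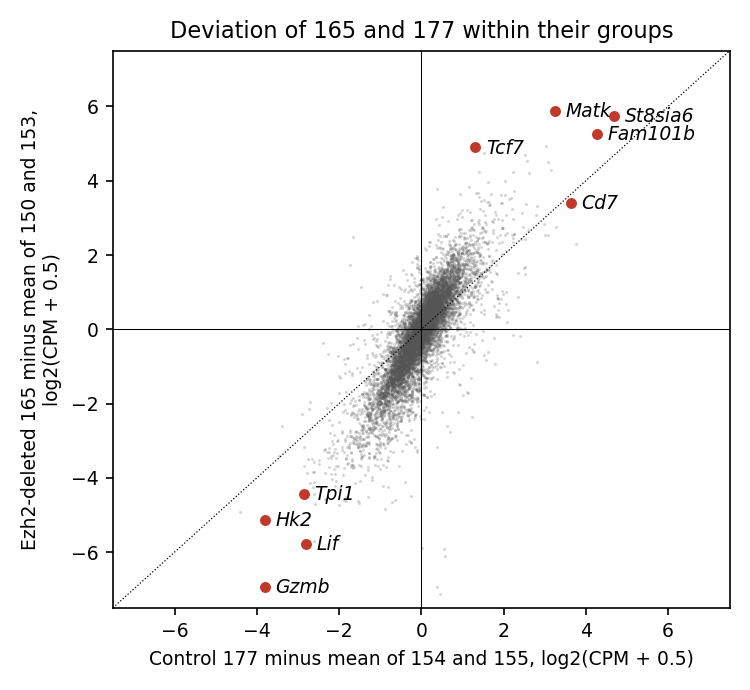
Deviation of control library fl/fl.177 (x axis) and Ezh2-deleted library KO.165 (y axis) from the other 2 libraries of their groups, in log2(CPM + 0.5), for 9921 genes (grey points), with 9 genes in red and the line of equal deviation dotted. The cloud runs along one direction (r 0.82) and is steeper than the dotted line, with a root mean square of 1.20 in KO.165 and 0.65 in fl/fl.177.

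Across 12845 tested genes, 2147 (16.7%) passed an adjusted p of 0.05 between Ezh2-deleted and control iTreg cells, 1214 (9.45%) higher and 933 (7.26%) lower without Ezh2 (edgeR quasi-likelihood test, all 12 RNA libraries in 1 fit, Benjamini-Hochberg adjustment, two-sided). Rises were larger and came from rarer transcripts than falls. The median size of a rise was 1.62 log2 units with 485 genes at least 4-fold higher, and that of a fall 1.03 with 235 at least 4-fold lower. The median level over the 6 libraries was 9.44 CPM for genes called higher and 31.1 CPM for genes called lower. Genes called higher held 7.43% to 8.24% of all reads in Ezh2-deleted and 2.97% to 3.55% in control libraries, and genes called lower 4.37% to 4.50% and 8.34% to 8.71%. CPM of the groups did not overlap for 1636 genes with Ezh2-deleted above (12.7%) and 1643 below (12.8%), and 2054 of these were among the 2147 called.

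For called genes the genotype change had the same direction in KO.165 against fl/fl.177 as in the other 4 libraries. Of the 2147 called genes 2126 had the same sign in KO.165 minus fl/fl.177 as in the mean of KO.150 and KO.153 minus the mean of fl/fl.154 and fl/fl.155, as the call itself favours, with median sizes of 1.00 and 1.07 log2 units. Over all 9921 genes with at least 5 CPM the signs agreed for 55.7% and Pearson's r was 0.57 (rho 0.28). A difference of at least 2-fold was seen in 1501 genes for KO.165 minus fl/fl.177, in 1016 for the other 4 libraries, and in both with 1 direction in 558, with 15 opposed. The number of calls moved with KO.165: 5763 genes passed without it and 2119 without fl/fl.177. Without both (2 against 2) it was 7409 (57.1% of tested genes, 28.7% higher and 28.3% lower), and with a model term for the pair 4991 (38.9%, 19% and 19.9%). It was 1376 without control fl/fl.155 and 539 with the 6 iTreg libraries alone (4.34%, 2.67% and 1.68%). The estimated spread (common dispersion) was 0.00517 without KO.165 and fl/fl.177, against 0.081 in the main fit and 0.152 with the 6 iTreg libraries alone. A smaller estimate lets smaller differences pass. Counts of list members, given below, are to be read beside the shares of the same fit. With all libraries these shares were 9.45% higher and 7.26% lower. Of the 2147 genes, 2120 were called in the same direction without both libraries and 539 with the 6 iTreg libraries alone, and none was called in the opposite direction in either fit.

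**Figure D3:**
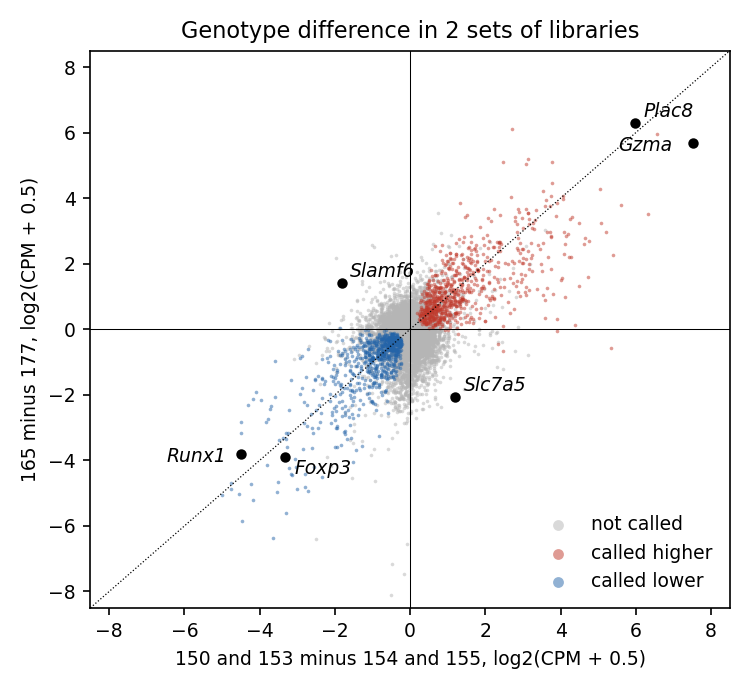
Genotype difference per gene in log2(CPM + 0.5), as KO.150 and KO.153 minus fl/fl.154 and fl/fl.155 (x axis) and as KO.165 minus fl/fl.177 (y axis), for the 9921 genes with at least 5 CPM, coloured by the call over all libraries. Of the 1461 called genes plotted 1453 lie in the quadrants of equal sign, and Slamf6 and Slc7a5 lie in the quadrants of opposed sign.

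Promoters are shown for the 2 rises and 2 falls with the widest gaps between the groups that are held in the RefSeq promoter table (GRCm38.p6, the assembly of mm10), and for Foxp3. Each run spans 250 bases before to 50 after the start site, 5′ to 3′ on the gene's strand, with CG dinucleotides, the sites of DNA methylation, in capitals.
Foxp3, chrX:7579426-7579725, + strand: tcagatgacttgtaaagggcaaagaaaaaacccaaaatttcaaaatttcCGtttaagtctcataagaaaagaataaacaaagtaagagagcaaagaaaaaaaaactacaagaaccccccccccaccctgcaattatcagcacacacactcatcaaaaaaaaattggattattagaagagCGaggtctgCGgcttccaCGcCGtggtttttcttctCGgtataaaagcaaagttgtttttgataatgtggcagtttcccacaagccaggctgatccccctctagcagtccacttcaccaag
Plac8, chr5:100572156-100572455, - strand: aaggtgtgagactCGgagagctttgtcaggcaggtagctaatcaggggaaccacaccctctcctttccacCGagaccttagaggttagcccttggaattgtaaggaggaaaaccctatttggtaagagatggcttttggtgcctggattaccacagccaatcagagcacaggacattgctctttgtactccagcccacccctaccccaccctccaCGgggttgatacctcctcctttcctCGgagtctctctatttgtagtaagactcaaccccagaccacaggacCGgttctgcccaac
Gzma, chr13:113100932-113101231, - strand: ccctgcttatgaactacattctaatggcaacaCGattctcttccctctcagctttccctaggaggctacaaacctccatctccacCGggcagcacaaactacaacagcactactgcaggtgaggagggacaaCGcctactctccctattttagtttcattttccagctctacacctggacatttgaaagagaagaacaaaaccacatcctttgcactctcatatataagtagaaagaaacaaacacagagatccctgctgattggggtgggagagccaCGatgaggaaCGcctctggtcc
Cdhr3, chr12:33092826-33093125, - strand: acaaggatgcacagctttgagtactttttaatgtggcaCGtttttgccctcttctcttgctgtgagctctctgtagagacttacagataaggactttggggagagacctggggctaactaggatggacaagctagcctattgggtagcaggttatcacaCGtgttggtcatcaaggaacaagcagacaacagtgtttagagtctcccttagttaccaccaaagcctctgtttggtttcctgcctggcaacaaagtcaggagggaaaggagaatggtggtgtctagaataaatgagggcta
Pdlim4, chr11:54068968-54069267, - strand: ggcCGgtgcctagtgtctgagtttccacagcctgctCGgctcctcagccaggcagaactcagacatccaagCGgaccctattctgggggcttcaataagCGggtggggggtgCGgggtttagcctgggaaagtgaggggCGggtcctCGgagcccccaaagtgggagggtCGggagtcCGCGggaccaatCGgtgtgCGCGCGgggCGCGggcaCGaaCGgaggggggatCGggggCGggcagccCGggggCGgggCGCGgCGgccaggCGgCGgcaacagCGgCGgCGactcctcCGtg
The promoters of Foxp3, Plac8, Gzma and Cdhr3 hold 6, 5, 5 and 2 CG dinucleotides and that of Pdlim4 holds 31, beside a median of 21 for the 9497 tested genes with a promoter in the table.

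Among the rises, Car2, a carbonic anhydrase, had 213, 207 and 290.1 CPM in Ezh2-deleted and 2.21, 1.31 and 4.19 CPM in control cells (log2 change 6.53, SE 0.41, adjusted p = 1.73e-05). Plac8, a small cysteine-rich protein, had 304, 256 and 226 and 5.90, 2.53 and 2.42 CPM (6.18, SE 0.38, adjusted p = 1.73e-05). The lowest Ezh2-deleted library stood above the highest control library by 5.47 and 5.15 log2(CPM + 0.5) units, and KO.165 and fl/fl.177 were the highest of their groups for Car2 and the lowest for Plac8. Gzma, the granule protease granzyme A, had 473, 492 and 50.6 and 2.25, 2.04 and 0.484 CPM (7.73, SE 0.94, adjusted p = 0.000516). Here KO.165 and fl/fl.177 were the lowest of their groups, and the groups were 4.22 units apart.

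Asb2 and Serpina3f also rose to a lower level in KO.165 than in its mates. Asb2, a substrate adaptor of a ubiquitin ligase, had 65.7, 70.2 and 6.57 and 0.343, 0.367 and 0.121 CPM, and Serpina3f, a serine protease inhibitor, 123, 129 and 36.8 and 2.74, 1.55 and 2.18 CPM (log2 changes 7.399 and 5.48, adjusted p = 0.000555 and 0.000101). Lrrk1, a leucine-rich repeat kinase, had 36.4, 38.9 and 27.8 and 1.94, 2.20 and 2.095 CPM, and Chst11, a chondroitin sulfotransferase, 19.99, 20.5 and 24.9 and 1.07, 1.06 and 1.37 CPM. These 2 were nearly even over the libraries of a group (log2 changes 4.05, SE 0.17, and 4.23, SE 0.22; adjusted p = 2.40e-06 and 1.03e-05). Osgin1, which is induced by oxidative stress, had 31.6, 23.6 and 69.2 and 1.98, 1.18 and 1.53 CPM, and Gimap7, a GTPase of lymphocytes, 95.6, 89.1 and 97.4 and 7.92, 4.08 and 6.25 CPM (log2 changes 4.73 and 3.95, adjusted p = 0.000157 and 1.99e-05).

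Among the falls, Foxp3 (chromosome X, 7579676 to 7595243) had 90.9, 82.5 and 65.2 CPM in Ezh2-deleted and 849.5, 912 and 979 CPM in control cells, with KO.165 the lowest of the Ezh2-deleted and fl/fl.177 the highest of the control libraries (log2 change -3.52, SE 0.33, adjusted p = 0.000133). In bulk RNA, fewer cells that express a gene and less RNA per cell cannot be told apart. Runx1, a transcription factor that binds DNA with CBF-beta and works with Foxp3 (chromosome 16, 92601467 to 92826066), had 4.63, 4.46 and 9.08 and 103, 123 and 133 CPM (log2 change -4.30, SE 0.28, adjusted p = 1.80e-05). Its highest Ezh2-deleted library was over 10-fold below its lowest control library. Pdlim4, a PDZ and LIM domain protein, had 2.60, 2.40 and 2.46 and 45.1, 69.9 and 78.4 CPM (-4.69, SE 0.26, adjusted p = 1.15e-05), and Cdhr3, a cadherin-related protein, 1.24, 1.07 and 0.319 and 54.6, 49.8 and 26.7 CPM (-5.62, SE 0.46, adjusted p = 6.54e-05).

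Fes and She were further wide falls. Fes, a cytoplasmic tyrosine kinase, had 6.28, 5.32 and 4.93 and 52.0, 72.4 and 54.5 CPM, and She, an SH2 domain adaptor, 1.86, 2.49 and 0.685 and 55.9, 67.5 and 38.0 CPM (log2 changes -3.43 and -4.99, adjusted p = 2.26e-05 and 9.18e-05). Abcc8, the sulfonylurea receptor of potassium channels, had 0.743, 0.172 and 0.958 and 13.8, 28.1 and 83.1 CPM, highest in fl/fl.177, and Pyroxd2 0.454, 0.3001 and 1.32 and 15.96, 33.2 and 46.5 CPM (adjusted p = 0.00226 and 0.000270). For all of these the groups stood apart without overlap. Ccr4, a chemokine receptor of T helper 2 and regulatory T cells, had 15.3, 14.6 and 4.06 and 166, 188 and 115.2 CPM (log2 change -3.78, SE 0.54, adjusted p = 0.00115).

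**Figure D4:**
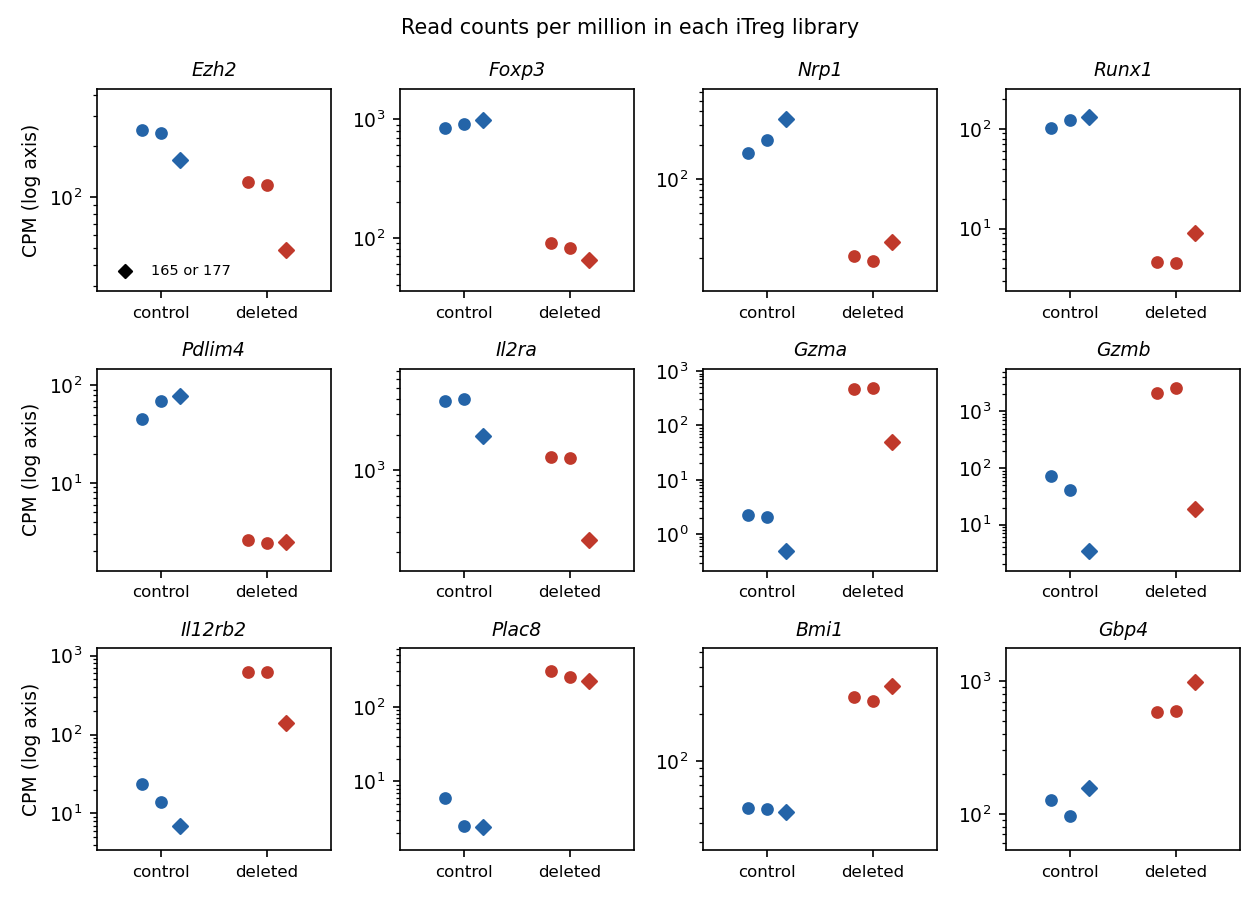
CPM on a log axis of 12 genes in each control library (blue, left) and each Ezh2-deleted library (red, right), with libraries KO.165 and fl/fl.177 as diamonds. Foxp3, Nrp1, Runx1 and Pdlim4 are low and Gzma, Il12rb2, Plac8, Bmi1 and Gbp4 high in all 3 Ezh2-deleted libraries, while Gzmb overlaps between the groups.

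Of 25 regulatory T cell genes tested, 11 fell and 2 rose, with a median log2 change of -1.07 beside 0.01 over all tested genes. Nrp1, a surface receptor of regulatory T cells, had 20.8, 18.7 and 27.6 and 172, 221 and 342 CPM (log2 change -3.45, SE 0.28, adjusted p = 6.48e-05). Il2ra, the high-affinity IL-2 receptor chain CD25, had 1294, 1279 and 256 and 3838, 3989 and 1954 CPM, with KO.165 and fl/fl.177 lowest in their groups (-1.79, SE 0.52, adjusted p = 0.0417). That call was lost in each fit that left out 1 library except those without iTreg KO.165 or fl/fl.177, at adjusted p = 0.0560 to 0.126. Tigit, an inhibitory receptor, went the other way, at 16.8, 13.4 and 18.6 and 0.7997, 0.530 and 0.645 CPM (4.62, SE 0.29, adjusted p = 1.73e-05), as did Swap70, a signalling protein that binds Rac, at 41.3, 41.9 and 34.7 and 15.99, 14.8 and 15.5 CPM (1.35, adjusted p = 0.000355). The integrin chain Itgae, known as CD103 and induced by TGF-beta, had 424, 373 and 1960.0 and 54.3, 75.5 and 874 CPM and did not pass (adjusted p = 0.428); the groups overlapped, and KO.165 and fl/fl.177 exceeded their mates by over 4-fold. The list had 17 falls and 4 rises without KO.165 and fl/fl.177, and 4 and 2 with the 6 iTreg libraries alone.

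In the IL-2 and STAT5 list 3 of 14 genes fell and 0 rose by edgeR, beside 7.26% and 9.45% of all tested genes. At an unadjusted p under 0.05, 1 rose, and by DESeq2 0 rose. Leaving out KO.165 and fl/fl.177, 9 fell and 1 rose, and with the 6 iTreg libraries alone 1 fell. Pim1, a STAT5-induced kinase, had 226, 228 and 177 and 654, 719 and 561 CPM (log2 change -1.61, SE 0.16, adjusted p = 0.000194). Socs2, a feedback inhibitor of cytokine signalling, had 347, 319 and 106 and 756, 835 and 519 CPM (-1.44, SE 0.37, adjusted p = 0.0244), and was not called without control fl/fl.154 or fl/fl.155 (adjusted p = 0.0682 and 0.0866). Il2ra was the third. Jak1, the kinase of the IL-2 receptor, had 630.1, 615 and 1514 and 573, 630.5 and 1145 CPM and was not called (adjusted p = 0.757).

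Of 16 TGF-beta pathway genes 2 were higher and 2 lower, near the shares of 9.45% and 7.26% of all tested genes. The receptor Tgfbr1 had 76.0, 68.4 and 98.9 and 132, 151 and 159 CPM (log2 change -0.86, adjusted p = 0.00439) and Smad3, which carries the signal to the nucleus, 27.2, 30.1 and 18.9 and 49.7, 51.8 and 62.5 CPM (-1.10, adjusted p = 0.00193). Both were lower in every Ezh2-deleted library. The ligand Tgfb3 had 50.0, 47.9 and 19.4 and 5.22, 4.53 and 3.95 CPM (3.10, SE 0.43, adjusted p = 0.000962), and the co-receptor Tgfbr3 55.1, 54.97 and 149.9 and 19.1, 17.7 and 32.8 CPM (1.91, SE 0.39, adjusted p = 0.00795). Skil, a feedback inhibitor that TGF-beta induces, had 239, 195 and 498 and 310.2, 360.3 and 679.8 CPM, highest in KO.165 and fl/fl.177, and was not called (adjusted p = 0.410). In the fit without KO.165 and fl/fl.177, 3 of the 16 rose and 8 fell, and with the 6 iTreg libraries alone 1 rose.

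T helper 1 genes rose in 16 of 20 and fell in 2, and cytotoxic genes rose in 13 of 18 and fell in 1, with median log2 changes of 3.10 and 3.86. From log2(CPM + 0.5) the medians were 2.30 and 1.04 for KO.165 minus fl/fl.177, and 1.85 and 1.51 for the other 4 libraries. The called cytotoxic genes Gzmd, Gzme, Gzmf, Gzmk and Crtam had no more than 1.404 CPM in any library, so their fold changes rest on few reads. Eomes and Fasl stand in both lists. Il12rb2, the IL-12 receptor chain, had 617, 623 and 142 and 23.5, 14.1 and 6.85 CPM (log2 change 4.96, SE 0.62, adjusted p = 0.000616). Fasl, the death ligand, had 60.5, 71.3 and 18.6 and 2.13, 2.20 and 2.66 CPM (4.43, SE 0.45, adjusted p = 0.000194). In both, library KO.165 had under 0.4 of the level of KO.150 and KO.153 and still exceeded every control library. Hlx, a homeobox factor that works with T-bet, had 2.15, 1.89 and 3.83 and 0.0381, 0.0816 and 0.161 CPM (4.75, SE 0.52, adjusted p = 0.000291), and the chemokine Ccl4 3.43, 4.63 and 7.07 and 0.457, 0.734 and 0.363 CPM (3.28, adjusted p = 0.000596); in these KO.165 was the highest library. Ifngr1, the ligand-binding chain of the interferon gamma receptor, had 276, 286 and 676 and 241, 196 and 329 CPM and was not called (adjusted p = 0.197).

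Among the cytotoxic genes Gzmb, granzyme B, ranged widely between libraries, with 2086, 2581 and 18.5 CPM in Ezh2-deleted and 72.6, 41.1 and 3.42 CPM in control cells. Its level in KO.165 was below that in 2 control libraries. KO.165 exceeded fl/fl.177, by a smaller fold than KO.150 and KO.153 exceeded fl/fl.154 and fl/fl.155 (log2 change over all libraries 5.32, SE 1.48, adjusted p = 0.0343). The call was lost in every fit that left out 1 library except that without KO.165 (adjusted p = 0.0530 to 0.117). Serpinb6b, a serpin of the family that inhibits granzymes, had 33.9, 34.9 and 27.6 and 7.502, 5.51 and 9.91 CPM (2.08, SE 0.20, adjusted p = 0.000157). Prf1, perforin, chosen after its values were seen, was the 1 fall, at 5.70, 7.504 and 1.05 and 15.9, 17.5 and 17.6 CPM (-1.83, SE 0.51, adjusted p = 0.0332), and it was called only without KO.153 or KO.165 among the 12 fits that left out 1 library (in the others adjusted p = 0.0511 to 0.0875). The cytotoxic list had 14 rises and 1 fall and the T helper 1 list 16 and 2 without KO.165 and fl/fl.177, and with the 6 iTreg libraries alone 6 and 0, and 7 and 1.

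Of receptors shared with natural killer cells 5 of 10 rose, and of inhibitory receptors 5 of 11 rose and 1 fell, beside 9.45% and 7.26% of all tested genes. The median log2 change was 2.01 in the first list but 0.15 in the second, beside 0.01 over all tested genes. Cd160 and Cd244 were called higher in both lists. The counts were 8 rises, and 6 with 3 falls, without KO.165 and fl/fl.177, and with the 6 iTreg libraries alone 1 rise, and 2 with 1 fall. Klrk1, which encodes NKG2D, had 40.1, 36.6 and 13.7 and 10.7, 5.38 and 3.22 CPM (log2 change 2.23, adjusted p = 0.00863) and Klrd1, which encodes CD94, 49.8, 45.5 and 96.9 and 20.8, 15.6 and 19.2 CPM (1.79, adjusted p = 0.00670). Cd160, in both lists, had 45.3, 39.3 and 8.58 and 2.21, 1.43 and 1.45 CPM (4.20, SE 0.55, adjusted p = 0.000742). In these 3 genes the groups did not overlap. Btla, an inhibitory receptor of lymphocytes, fell, at 15.7, 16.1 and 8.63 and 47.3, 52.6 and 57.5 CPM (-1.95, SE 0.30, adjusted p = 0.00156), and Ctla4, the inhibitory receptor of regulatory T cells, had 214, 182 and 577 and 447, 391.5 and 469 CPM (adjusted p = 0.547), where KO.165 was the highest of the 6 libraries.

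The CD8 T cell markers summed to 39.6 to 138 CPM in Ezh2-deleted and 18.01 to 26.7 CPM in control cells, and like the cytotoxic list (1295 to 5106 and 772 to 1029 CPM) their sums were highest in KO.150 and KO.153. Cd8a had 122, 117 and 17.7 and 15.8, 17.1 and 8.58 CPM (log2 change 2.63, adjusted p = 0.0543, not called) and Cd8b1 16.8, 15.7 and 21.9 and 10.9, 9.46 and 9.43 CPM (0.88, SE 0.17, adjusted p = 0.00597). Only Cd8a followed the order of the sums, while Cd8b1 was highest in KO.165. Zbtb7b, the factor ThPOK that holds cells in the CD4 lineage, had 62.2, 69.3 and 87.3 and 144, 131 and 126 CPM (-0.87, SE 0.13, adjusted p = 0.00126). The NK receptor gene Ncr1 had no read in any of the 6 libraries, which allows up to 3 reads in each. The part of CD8 T cells in the cytotoxic rise was not tested. In the T cell identity list 6 of 18 fell and 3 rose (8 and 5 without KO.165 and fl/fl.177, 2 and 0 with the 6 iTreg libraries alone). Trat1, an adaptor of the T cell receptor, had 5.41, 5.57 and 14.8 and 79.9, 74.1 and 76.4 CPM (-3.15, SE 0.38, adjusted p = 0.000507), Cd2, an adhesion receptor, 179, 173 and 205 and 513, 456 and 308 CPM (-1.19, adjusted p = 0.00156), and Thy1 1796, 1909.7 and 1212 and 1379, 1427 and 968 CPM (adjusted p = 0.219, not called).

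Interferon response genes rose in 24 of 31 and fell in 0 by edgeR (0 also at an unadjusted p under 0.05 and by DESeq2), with a median log2 change of 1.74. The guanylate-binding protein Gbp4 had 579, 591 and 984 CPM in Ezh2-deleted and 128, 95.8 and 156 CPM in control cells (log2 change 2.51, SE 0.24, adjusted p = 0.000154) and Gbp2 589, 595 and 768 and 238, 179.5 and 335 CPM (1.38, adjusted p = 0.00224). Library KO.165 was highest in both. Usp18, which removes ISG15 from proteins, had 21.2, 19.7 and 29.8 and 2.28, 1.18 and 2.70 CPM (3.52, SE 0.45, adjusted p = 0.000647), Mx1, an antiviral GTPase, 9.58, 10.8 and 9.90 and 1.22, 0.408 and 0.322 CPM (3.94, SE 0.64, adjusted p = 0.00227), and Igtp, an immunity-related GTPase, 911, 943 and 1558 and 556, 464 and 551 CPM (1.12, adjusted p = 0.00302). Irf9 had 100.4, 101 and 307 and 107, 103 and 183 CPM and was not called (adjusted p = 0.651). The rises numbered 22 without KO.165 and fl/fl.177, 27 with a model term for them, and with the 6 iTreg libraries alone 8.

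The interferon-stimulated response element is the DNA element that interferon-activated factors bind. It was searched as GAAA and GAAA parted by any 2 bases, on both strands, and matches may overlap. A match was in the promoter of 15 of 23 list genes held in the promoter table (65.2%), against 3.05% of all tested genes with a promoter and 3.44% of all 32851 promoters of 300 bases in the table. Of the 15 list genes with a match 13 were called higher, beside 18 of all 23. Over all called genes a match was in 5.01% of promoters of genes called higher and 2.01% of those called lower. One match is shown for 5 genes called higher, with up to 10 bases on either side and the element, whose position is given, in capitals (GRCm38.p6, RefSeq). The strand is the one that carries it (Irgm1, Ifit1 and Isg15 were chosen after their values were seen).
Gbp2, chr3:142620604-142620613, - strand: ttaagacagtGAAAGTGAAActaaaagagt
Igtp, chr11:58199522-58199531, + strand: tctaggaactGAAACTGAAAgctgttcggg
Irgm1, chr11:48871441-48871450, - strand: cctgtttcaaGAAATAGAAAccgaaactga
Ifit1, chr19:34640804-34640813, - strand: tcagcagtgaGAAACTGAAActgagactgg
Isg15, chr4:156200887-156200896, - strand: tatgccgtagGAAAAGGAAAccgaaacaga
A match is a description of the letters and was not tested as a binding site.

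Other surface genes that interferon can induce were higher too. B2m, the light chain of MHC class I, had 2912, 2748 and 3729.7 and 1642, 1363 and 1709 CPM (log2 change 1.000, SE 0.13, adjusted p = 0.000832). Ly6a, known as Sca-1, had 1813, 1793 and 1237 and 315, 157 and 273 CPM (2.71, SE 0.27, adjusted p = 0.000194), and Ly6e 1637, 1569.6 and 1914 and 849.7, 746 and 717 CPM (1.15, adjusted p = 0.000182). In all 3 the groups stood apart. Of 10 MHC class II genes 5 rose and 1 fell, beside 9.45% and 7.26% of all tested genes. The counts were 7 and 2 without KO.165 and fl/fl.177, and 3 and 0 with the 6 iTreg libraries alone. H2-Aa, an MHC class II alpha chain, had 18.5, 19.1 and 20.04 and 3.85, 4.94 and 4.39 CPM (2.13, SE 0.31, adjusted p = 0.00122), and H2-Ob, part of the regulator H2-O, 1.16, 1.20 and 6.34 and 15.7, 18.4 and 67.3 CPM (-3.54, SE 0.79, adjusted p = 0.0121), highest in KO.165 and fl/fl.177.

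Chemokine receptors changed in both directions, with 5 of 14 higher and 5 lower, beside 9.45% and 7.26% of all tested genes. The counts were 6 of 15 each way without KO.165 and fl/fl.177, and 1 and 3 with the 6 iTreg libraries alone. Cxcr6, a receptor of effector and tissue-resident T cells, had 199.5, 221 and 40.0 and 9.79, 7.91 and 3.75 CPM (log2 change 4.43, SE 0.63, adjusted p = 0.00116). Ccr8, a receptor of regulatory and T helper 2 cells, had 12.2, 12.01 and 10.1 and 35.3, 34.7 and 39.4 CPM (-1.67, SE 0.27, adjusted p = 0.00234). In neither gene did the groups overlap. In the naive and memory list 1 of 14 genes rose and 1 fell, and without KO.165 and fl/fl.177 2 rose and 12 fell. The rise was Cd44, a marker of activated and memory cells, with 81.1, 81.0 and 73.5 and 39.6, 39.6 and 46.0 CPM (0.92, SE 0.09, adjusted p = 0.000180). Integrins had 3 of 14 higher and 3 lower (6 and 5 without KO.165 and fl/fl.177), with Itgal, the LFA-1 alpha chain, at 679, 716 and 850.2 and 331, 311 and 323 CPM (1.22, adjusted p = 8.68e-05) and Itga6 at 64.3, 61.7 and 122 and 337, 355 and 324 CPM (-2.03, adjusted p = 0.000400).

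The T helper 2 list had 3 of 14 higher and 4 lower, the T helper 17 list 1 of 6 each way and the Tfh list 1 of 12 higher and 2 lower, beside 9.45% and 7.26% of all tested genes. In the fit without KO.165 and fl/fl.177 these were 4 of 15 each way, 4 of 6 higher and 1 lower, and 0 of 12 higher and 7 lower. Il10, an anti-inflammatory cytokine, had 8.88, 7.63 and 13.2 and 0.0762, 0.204 and 0.121 CPM (log2 change 6.17, SE 0.98, adjusted p = 0.00197). Basp1, a membrane-bound protein, had 21.1, 20.5 and 22.2 and 4.68, 4.69 and 4.47 CPM (2.21, SE 0.18, adjusted p = 6.48e-05). These rises were seen in all 3 Ezh2-deleted libraries. Ahr, the aryl hydrocarbon receptor, had 119, 111 and 16.4 and 24.2, 21.7 and 37.2 CPM and overlapped between the groups (adjusted p = 0.0874). Il4ra, the IL-4 receptor chain, had 294, 311 and 398 and 402, 428 and 465 CPM (adjusted p = 0.395).

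**Figure D5:**
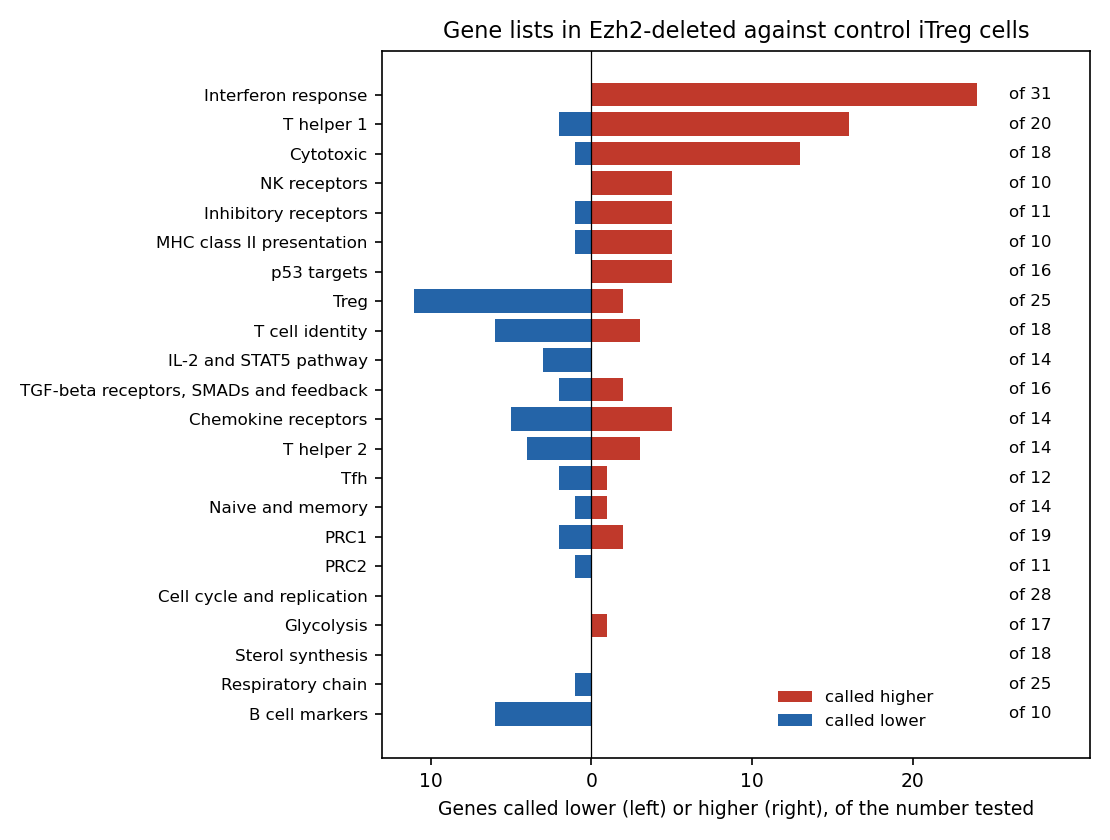
Number of genes called higher (red, right) and lower (blue, left) in Ezh2-deleted against control iTreg cells in 22 gene lists, with the number tested at the right. By number, interferon response (24 of 31), T helper 1 (16 of 20) and cytotoxic genes (13 of 18) lead the rises. Regulatory T cell genes (11 of 25) lead the falls by number, and B cell markers by share (6 of 10). Of all tested genes 9.45% were higher and 7.26% lower.

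Of 11 PRC2 genes Ezh2 alone was called (2 rose and 3 fell without KO.165 and fl/fl.177, and 0 were called with the 6 iTreg libraries alone). Of 19 PRC1 genes 2 rose and 2 fell, near the shares of 9.45% and 7.26% of all tested genes. The counts were 4 and 10 without KO.165 and fl/fl.177, and 1 and 0 with the 6 iTreg libraries alone. Bmi1, a PRC1 subunit, had 258, 240.4 and 301 and 50.2, 49.2 and 47.0 CPM (log2 change 2.45, SE 0.11, adjusted p = 2.57e-06), a gap of over 4-fold between the groups. Phc3, another PRC1 subunit, had 353, 314 and 306 and 733, 784 and 437 CPM (-1.001, SE 0.19, adjusted p = 0.00591). Cdkn2a, which encodes 2 brakes of the cell cycle and is a known Polycomb target, had 32.0, 39.5 and 1.10 and 1.33, 1.14 and 0.967 CPM (4.40, SE 0.95, adjusted p = 0.0105); its level in KO.165 lay within the range of the control libraries. Of 8 Cdk inhibitors it was the 1 called, beside 16.7% of all tested genes called in either direction.

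Growth and metabolism lists held few calls between the genotypes with all libraries and more without KO.165 and fl/fl.177. None of 28 cell cycle genes, 18 sterol synthesis genes or 14 unfolded protein response genes was called by edgeR or DESeq2 with all libraries (3, 0 and 0 at an unadjusted p under 0.05); without KO.165 and fl/fl.177, 17, 16 and 10 were called (57.1% of all genes in that fit). One of 17 glycolysis genes rose (10, with 1 fall, without KO.165 and fl/fl.177). Of 25 respiratory chain genes 1 fell (1, with 10 rises, without KO.165 and fl/fl.177), Ndufa4, at 35.6, 40.0 and 17.7 and 103, 119 and 66.9 CPM (log2 change -1.63, SE 0.29, adjusted p = 0.00406). Top2a, the topoisomerase of dividing cells, had 1797, 1694 and 388 and 2109.8, 1986 and 1656 CPM (adjusted p = 0.472), and Gapdh 2905, 3296 and 648 and 2463.7, 1801 and 664 CPM (adjusted p = 0.677). In both the groups overlapped. Of 16 p53 target genes 5 rose, beside 9.45% of all tested genes. In the fit without KO.165 and fl/fl.177, 12 rose and 1 fell, and with the 6 iTreg libraries alone 1 rose. Zmat3 had 83.7, 84.0 and 65.2 and 40.3, 37.9 and 40.4 CPM (0.98, SE 0.12, adjusted p = 0.000579), and Ccng1, cyclin G1, 391.5, 439 and 279.7 and 226, 191 and 239.6 CPM (0.76, SE 0.16, adjusted p = 0.00907).

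Markers of other cells were scarce. The 10 B cell markers summed to 4.37 to 6.34 CPM in Ezh2-deleted and 13.5 to 15.3 CPM in control cells, and 6 fell (3 without KO.165 and fl/fl.177). Dendritic cell markers summed to 6.98 to 9.58 and 1.09 to 1.63 CPM and 4 of 4 tested rose (1 with the 6 iTreg libraries alone), among them Zbtb46, a factor of classical dendritic cells, at 4.42, 4.37 and 1.64 and 0.457, 0.286 and 0.161 CPM; Clec9a had 1 read in KO.165 and none in the other libraries. Myeloid markers summed to 4.21 to 12.9 and 4.89 to 27.5 CPM, with 0 of 3 tested called (0 also at an unadjusted p under 0.05 and by DESeq2), Itgam highest in fl/fl.177 and KO.165, and Cebpa, S100a8 and S100a9 at 0 reads in all 6 libraries. Erythroid markers summed to 0.496 to 0.913 and 0.530 to 1.09 CPM, with the 4 globin genes at 0 reads. The part of such cells in the genotype changes was not tested.

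The genotype difference had opposite signs in the 2 sets of libraries for some genes, and none of the 5 named here was called by edgeR with all libraries. Slamf6, a receptor of the SLAM family, had 9.62, 5.96 and 216 and 27.8, 27.9 and 81.3 CPM, a log2 difference of 1.403 for KO.165 minus fl/fl.177 and -1.81 for the other 4 libraries. Bcl6, the repressor that directs Tfh cells, had 7.31, 5.19 and 64.2 and 15.99, 15.5 and 22.9 CPM, with differences of 1.47 and -1.28. Nsg2 had 21.8, 20.8 and 309 and 49.3, 56.4 and 119 CPM, with 1.37 and -1.29. These 3 were high in KO.165. Slc7a5, the large neutral amino acid transporter, had 259, 294 and 14.4 and 129, 111 and 62.3 CPM, with -2.07 and 1.20, and Lgals3, galectin-3, 349, 423 and 62.5 and 148, 139 and 221 CPM, with -1.81 and 1.42, both low in KO.165.

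The effect of Ezh2 deletion differed between the iTreg and Th0 cultures, by an interaction term, for 577 of 12845 genes (4.49%), 416 of them called in iTreg. That count was 271 to 320 without any 1 Th0 library, 304 without control fl/fl.155, 370 without KO.150, 2552 without KO.165, 5347 without KO.165 and fl/fl.177 and 1213 by DESeq2. The titles give day 5 for the iTreg and day 4 for the Th0 RNA libraries, so culture and labelled day cannot be told apart. Sgk1, a kinase that acts downstream of PI3 kinase, had 31.2, 32.9 and 32.1 and 199.7, 189 and 118 CPM in iTreg (log2 change -2.39, SE 0.20) and rose in Th0 from a mean of 14.6 to 56.0 CPM (interaction -4.30, adjusted p = 0.000343). Nrn1, neuritin, rose in iTreg, at 34.5, 43.3 and 31.04 and 20.8, 16.6 and 8.34 CPM, and fell in Th0 from 151 to 9.31 CPM (interaction 5.30, adjusted p = 0.000450). These 2 moved in opposite directions in the cultures, as did Gna15, a G protein subunit, at 6.98, 7.12 and 5.93 and 15.9, 14.1 and 12.4 CPM in iTreg and means of 11.7 and 3.94 CPM in Ezh2-deleted and control Th0 (interaction -2.61, adjusted p = 0.000421). Runx1, with 52.6 and 74.4 CPM in Ezh2-deleted and control Th0 cells, was not called there (adjusted p = 0.216), and its difference was larger in iTreg (interaction -3.76, adjusted p = 0.000896).

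Interferon genes differed between the cultures as well. Of the 31, 18 had an interaction called, and the median log2 change was -0.49 in Th0 against 1.74 in iTreg. Usp18 had means of 29.0 and 27.0 CPM in Ezh2-deleted and control Th0 cells (interaction 3.45, adjusted p = 0.0109). The T helper 1 and cytotoxic lists had 2 of 20 and 2 of 18 with an interaction called, the first including Il12rb2 (3.59, adjusted p = 0.0296). Gzma, which rose in both cultures, had an interaction of -0.34 (adjusted p = 0.979), a difference that the test did not resolve. Foxp3 had an interaction of -1.07 (adjusted p = 0.247).

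H3K27me3 was measured in Th0 cells, so it describes the genes and not the iTreg cells. Reads of each deposited gene interval were scaled to library total and to length in kb, with no correction for a global change of the mark, and on this scale the median over all tested genes with an interval was higher in Ezh2-deleted (0.88) than in control cells (0.52). Genes called higher in iTreg had a median of 0.98 in control Th0 cells, genes called lower 0.63 and uncalled genes 0.49. Of genes called higher 24.6% were among the 10% most dense, and of those called lower 13.4%, with 43.8% and 37.0% among those changed at least 4-fold. Cdkn2a had 6.27 and 1.6 in control and Ezh2-deleted cells (means of 2 libraries), Hlx 3.57 and 1.16, Il10 3.05 and 1.4 and Bmi1 2.65 and 1.02. The falls Runx1 and Nrp1 had 0.71 and 0.90, and 0.99 and 0.99. A rise below the median of rises in control cells and falls above the median of falls were found too. The rise Gimap7 had 0.42 and 0.95. The rise Asb2, above the median of rises, had 1.13 and 0.88. The falls Abcc8 and Pdlim4 had 1.58 and 1.05, and 1.54 and 0.94. The genes named here are examples and do not stand for all rises or all falls. These are descriptions with no test.

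Promoters with few CG dinucleotides were more frequent among called genes. A promoter with at most 5 was found for 18.8% of 879 genes called higher and 15.9% of 697 called lower, against 10.6% of the 9497 tested genes in the table, and for 27.1% and 31.1% of those changed at least 4-fold. The T-box half-site GGTGTGA, on both strands, was in 3.87% of promoters of genes called higher, 3.87% of those called lower and 3.36% of all. The Runx core TGTGGT was in 15.4%, 14.6% and 12.8%, and the forkhead core TGTTTAC in 2.62%, 1.58% and 2.38%. Among genes higher and lower by at least 4-fold these were 6.20% and 6.11% for the T-box half-site (21 of 339 and 11 of 180), 17.99% and 18.89% for the Runx core and 2.07% and 0% for the forkhead core, beside 3.98%, 16.8% and 3.65% of all promoters in the table.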

How the data were processed

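RNA was read as libraries of total RNA (TruSeq RNA v2) from 6 iTreg and 6 Th0 samples, and H3K27me3 ChIP from 4 Th0 samples. The authors deposited whole-number read counts per gene (RNA) and per gene interval (ChIP); per the submitters' processing notes, reads were trimmed (Trimmomatic 0.30), aligned to mm10 (TopHat2 2.0.6, Bowtie2 2.1.0) and counted (featureCounts 1.4.2). Strand is not stated, so overlapping and antisense genes cannot be told apart.

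Of 23420 genes, those passing filterByExpr (minimum count 10) were tested with edgeR 4.0.16 (R 4.3.3): TMM scaling, robust quasi-likelihood fit of 4 groups over 12 libraries, Benjamini-Hochberg threshold 0.05. Differences between libraries used log2(CPM + 0.5). Counts of 12845 genes were simulated for the 12 libraries, with changes in the 3 Ezh2-deleted iTreg libraries. In the same fit 32 of 100 genes changed 2-fold and 72 of 100 changed 4-fold were recovered. Each library was drawn independently, with no shared deviation of KO.165 and fl/fl.177. DESeq2 1.42.0, other scalings, no filter, a term for KO.165 and fl/fl.177, the iTreg libraries alone and each library left out were alternatives.

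The members and gene lists were chosen with earlier results of these data known. Genes were named by a written rule: Ezh2 and Foxp3, the widest gaps, up to 4 called and 1 uncalled per list, the most abundant changes, the largest deviations of KO.165 and fl/fl.177, the largest opposed differences and the smallest interaction p. Prf1, Ifit1, Irgm1 and Isg15 were added after their values were seen. Of 589 list entries 587 were found. A few genes that the rule gives are not reported here.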

Additional observations from a re-analysis of the deposited data

Results flagged for a closer look

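The effect of Ezh2 deletion in iTreg differed from that in Th0 for 577 genes by the interaction term of the edgeR fit (adjusted p under 0.05), each with 3 libraries a group, and the genes below are those described above. Values are the log2 change in iTreg minus that in Th0. Among interferon-response and related surface genes it was 3.45 for Usp18, 1.4 for Gbp2, 1.53 for Gbp4, 1.14 for B2m and 2.1 for Ly6a. Among receptors and cytokine-pathway genes it was -3.92 for Nrp1, -3.81 for Ccr4, -3.04 for Ccr8, 3.95 for Ctla4, 2.35 for Tigit, 3.59 for Il12rb2 and -1.49 for Smad3. Among the widest rises and falls it was 4.61 for Plac8, 4.81 for Gimap7, 3.89 for Osgin1, 3.52 for Serpina3f, -3.87 for Pdlim4, -3.76 for Runx1, -4.67 for Fes, -3.13 for She and -4.91 for Pyroxd2. The other values were -4.30 for Sgk1, 5.30 for Nrn1, -2.61 for Gna15, 0.84 for Bmi1, -5.11 for Prf1, -5.41 for H2-Ob and -3.27 for Lgals3. The largest adjusted p among these was 0.0453 (Lgals3). The cultures also differ in the day in their titles, and explanations of the differences between them were not tested.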

How the results depend on the processing

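The number of genes called between Ezh2-deleted and control iTreg cells ran from 1376 to 5763 over the 12 fits that left out 1 library (higher 768 to 2733, lower 608 to 3030), lowest without control fl/fl.155 and highest without Ezh2-deleted KO.165. With the 6 iTreg libraries alone it was 539 (331 higher, 208 lower), where fewer libraries estimate the spread and that estimate was larger. The common dispersion was 0.152 in the fit of the iTreg libraries alone and 0.081 in the main fit, which shares its estimate with the Th0 libraries. Without KO.165 and fl/fl.177 the number called was 7409 (3731 and 3678) and with a model term for them 4991 (2440 and 2551). The common dispersion was 0.00517 and 0.0174 in these fits, smaller than in the main fit. The interaction count was 5347 and 2366 in these last fits, 1213 by DESeq2, and 271 to 2552 over the fits without 1 library. Other scalings, no filter on low counts, no robust fitting and DESeq2 gave 1994 to 2982 calls. Genes called higher made up 56.5% of calls, 48.9% with the model term and 47.4% without KO.165. Of the 2147 called genes 524 kept their call and direction in all 21 alternatives, 1237 in the 12 fits without 1 library, and none was called the other way in any of the 21. Of the 71 called genes named here 50 kept their call throughout, and 21 lost it with the 6 iTreg libraries alone.

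Uncalled genes changed sign in some fits. Without KO.165 and fl/fl.177 the log2 change was -1.33 for Bcl6, -0.0685 for Irf9, -0.42 for Matk, -1.31 for Nsg2, -1.83 for Slamf6 and -0.99 for Tcf7. With a model term for these libraries it was -0.35 for Bcl6, -0.0848 for Lif, -0.42 for Nsg2 and -0.70 for Slamf6, and with that term in the 6 iTreg libraries alone -0.38 for Bcl6, -0.14 for Lif, -0.44 for Nsg2 and -0.76 for Slamf6. Over the 12 fits without 1 library it ran from -1.53 to 0.98 for Bcl6, from -1.16 to 0.38 for Ccr7, from -2.60 to 1.91 for Cd7, from -1.97 to 4.86 for Fam101b, from -0.38 to 0.68 for Irf9, from -0.32 to 0.61 for Jak1, from -2.46 to 4.10 for Matk, from -1.81 to 1.15 for Nsg2, from -0.0864 to 0.97 for Scd1, from -2.54 to 1.47 for Slamf6 and from -1.57 to 2.41 for Tcf7. The values of the other sign came without KO.165 for Bcl6, Fam101b, Irf9, Jak1, Matk, Nsg2, Slamf6 and Tcf7, without KO.150, KO.153 or fl/fl.177 for Ccr7 and Cd7 and without fl/fl.177 for Scd1. The cause was not tested.

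No paired analysis was possible within iTreg because the Ezh2-deleted and control iTreg libraries share no replicate number. KO.165 and fl/fl.177 share their numbers with Th0 libraries, and the interaction fit took all 12 libraries as independent. Counts of list members without KO.165 and fl/fl.177, with the term and in the 6 libraries alone were chosen as alternatives after seeing the data. Fits that leave 2 libraries in a group assume that they vary like the other groups. Depth was similar in all 6 libraries; fold changes of genes under about 1 CPM rest on few reads, and genes at 0 reads are below 3 reads a library.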
